A study of Mus musculus with 6 samples.

Results

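Complex I of the respiratory chain is built from proteins whose genes carry symbols starting with Nduf, and these genes were examined in inguinal white adipose tissue (IngWAT) of mice lacking Hdac3 in adipose tissues. All protein-coding genes with such a symbol in GENCODE M21 (mouse build GRCm38) and with 10 or more counts summed over the samples were taken. Of 51 annotated Nduf symbols 46 were protein-coding, and all 46 met the minimum, with sums between 319 and 46847 counts. They comprise 36 complex I subunits, the 8 assembly factors Ndufaf1 to Ndufaf8, and Ndufa4 and Ndufa4l2, which carry the Nduf name but are placed apart because Ndufa4 is now known as a subunit of cytochrome c oxidase. All 46 were among the 14967 genes tested.

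RNA-seq was performed on 6 samples, 3 from Hdac3 floxed controls and 3 from H3atKO mice, in which Hdac3 floxed alleles were deleted by Cre under the adiponectin promoter, carried by the transgenic line B6;FVB-Tg(Adipoq-cre)1Evdr/J. For both groups, labels give a C57Bl6 strain, an age of 5-9 months and a chow diet, and the study's methods describe male mice. Each sample was RNA pooled from 2/3 mice of a genotype, and the whole tissue was used, so cells in which adiponectin is not expressed keep Hdac3. In such bulk samples, fewer cells of a type and less RNA per cell cannot be told apart.

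Complex I oxidises NADH at the tip of its matrix arm, passes the electrons through iron-sulphur clusters to ubiquinone and couples this to proton pumping in its membrane arm. The N module binds NADH, the Q module reduces ubiquinone, and the proximal and distal parts of the membrane arm hold the pumps, whose central proteins are encoded by the mitochondrial genome. Core subunits carry out catalysis, accessory subunits surround and stabilise them, and assembly factors join the modules or modify subunits without staying in the finished enzyme. In brown and beige adipocytes, which are rich in mitochondria, the respiratory chain supplies the proton gradient that is spent on heat.

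Samples held 23865507 to 35200685 counts on genes, so 3 counts correspond to 0.0852 to 0.126 cpm, the count relative to the library size. Counts of the targeted gene Hdac3 ran from 2709 to 3339 in floxed samples and from 204 to 666 in H3atKO samples (log2 fold change -1.83, limma adjusted p = 0.0213). Genes of the mitochondrial genome took 6.92% to 12.9% of the counts in floxed and 26.9% to 35.3% in H3atKO samples, and the TMM factors that scale the libraries were 1.295 to 1.37 and 0.663 to 0.92. The 6 adipocyte markers were detected in every sample and summed to 13196 to 28610 cpm in floxed and 15228 to 26334 cpm in H3atKO samples. None of these differences between libraries was tested as a source of the values below.

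The members differ in base composition, and since their changes followed it, coding sequence is shown for 6 of them, with G and C in capitals and A and T in lower case. Each line holds the central 180 bases of the spliced coding sequence of a GENCODE transcript on GRCm38. Ndufv1 (chr19:4007384-4012806, minus strand, bases 607 to 786 of 1392) and Ndufv2 (chr17:66078638-66101559, minus strand, bases 283 to 462 of 744) are core subunits of the N module. Ndufs7 (chr10:80249121-80256794, plus strand, bases 247 to 426 of 672) is a core subunit of the Q module, and Ndufs1 (chr1:63143596-63176833, minus strand, bases 1000 to 1179 of 2181) of the N module. Ndufa13 (chr8:69894180-69902558, minus strand, bases 127 to 306 of 432) is an accessory subunit of the membrane arm, and Ndufaf4 (chr4:24898083-24905001, plus strand, bases 169 to 348 of 519) is an assembly factor.
Ndufv1: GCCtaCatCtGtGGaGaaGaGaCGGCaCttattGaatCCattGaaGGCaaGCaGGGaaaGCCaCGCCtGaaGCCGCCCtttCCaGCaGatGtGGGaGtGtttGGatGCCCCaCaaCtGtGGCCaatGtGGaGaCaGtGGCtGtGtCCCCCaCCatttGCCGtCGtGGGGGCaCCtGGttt
Ndufv2: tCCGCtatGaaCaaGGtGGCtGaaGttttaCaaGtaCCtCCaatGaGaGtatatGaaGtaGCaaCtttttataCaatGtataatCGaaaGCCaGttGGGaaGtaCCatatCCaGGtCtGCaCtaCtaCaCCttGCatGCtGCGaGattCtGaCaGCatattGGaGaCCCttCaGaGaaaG
Ndufs7: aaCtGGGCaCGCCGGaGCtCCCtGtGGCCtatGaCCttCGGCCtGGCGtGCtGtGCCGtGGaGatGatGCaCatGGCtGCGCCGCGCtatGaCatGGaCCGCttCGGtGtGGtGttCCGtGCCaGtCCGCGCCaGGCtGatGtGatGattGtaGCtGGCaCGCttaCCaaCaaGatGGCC
Ndufs1: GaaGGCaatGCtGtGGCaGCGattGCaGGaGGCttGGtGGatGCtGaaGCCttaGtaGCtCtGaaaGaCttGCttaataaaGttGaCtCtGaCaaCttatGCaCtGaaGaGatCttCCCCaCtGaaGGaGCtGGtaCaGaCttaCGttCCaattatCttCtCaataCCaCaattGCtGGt
Ndufa13: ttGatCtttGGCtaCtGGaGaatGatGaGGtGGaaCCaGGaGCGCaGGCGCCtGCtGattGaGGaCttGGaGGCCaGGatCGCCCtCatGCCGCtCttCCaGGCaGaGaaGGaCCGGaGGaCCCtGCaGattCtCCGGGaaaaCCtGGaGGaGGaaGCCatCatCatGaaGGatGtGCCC
Ndufaf4: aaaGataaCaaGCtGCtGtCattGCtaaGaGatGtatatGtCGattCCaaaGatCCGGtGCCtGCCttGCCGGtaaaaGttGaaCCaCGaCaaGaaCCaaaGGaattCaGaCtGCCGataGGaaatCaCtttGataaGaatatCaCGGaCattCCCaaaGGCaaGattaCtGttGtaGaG
G and C made up 102 of the 180 bases in Ndufv1 (56.7%), 112 in Ndufs7 (62.2%) and 104 in Ndufa13 (57.8%). They made up 76 in Ndufv2 (42.2%), 82 in Ndufs1 (45.6%) and 76 in Ndufaf4 (42.2%). Over the whole coding sequence, the last position of the codon was G or C in 59.7% of the codons of Ndufv1, 71.9% of those of Ndufs7 and 85.4% of those of Ndufa13, and in 39.5% of those of Ndufv2, 39.2% of those of Ndufs1 and 47.4% of those of Ndufaf4. Over the 46 members, the GC content of the longest transcript ran from 39.5% in Ndufaf4 to 60.7% in Ndufa4l2.

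With limma voom, 14 of the 46 members were upregulated in H3atKO samples when called below an adjusted p of 0.05 (30.4%), where 9.42% of all tested genes were. They were 10 subunits (Ndufb6, Ndufb4, Ndufab1, Ndufc1, Ndufs1, Ndufv2, Ndufs4, Ndufc2, Ndufb5 and Ndufa5), 3 assembly factors (Ndufaf4, Ndufaf2 and Ndufaf1) and Ndufa4. By the same test 0 members were down-regulated, against 7.07% of all tested genes, and 7 members had a negative change at an unadjusted p under 0.05. edgeR's quasi-likelihood test called 14 members higher and 7 lower (12.8% and 18.4% of all genes), and DESeq2 called 16 higher and 12 lower (19.6% and 23.2%). The log2 fold changes ran from -3.99 for Ndufa4l2 to 2.88 for Ndufaf4, with 26 positive and 20 negative. In cpm, 17 members had every H3atKO sample above every floxed sample and 9 had every H3atKO sample below, where 23.1% and 28.6% of all tested genes did.

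Same-numbered samples of the 2 genotypes deviated together and were taken as pairs. This pairing was inferred from these same data and is not given by the labels, and all p-values with the replicate block rest on it. With the number as a block limma called 17 members higher and 16 lower, where 24.8% and 28.7% of all genes were called. The calls also depended on single libraries. Higher members numbered 4 without floxed replicate 1, 0 without floxed replicate 2 (14 at an unadjusted p under 0.05 by limma), 6 without H3atKO replicate 1, 6 without H3atKO replicate 2 and 2 without H3atKO replicate 3. Calls fell over all genes as well, where 149, 1, 199, 395 and 87 genes were called higher in these fits, in the same order. Without floxed replicate 3 the higher members numbered 14, and 15 members were then called lower. Of the 14759 genes in that fit, 2729 were called higher and 3828 lower.

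**Figure D1:**
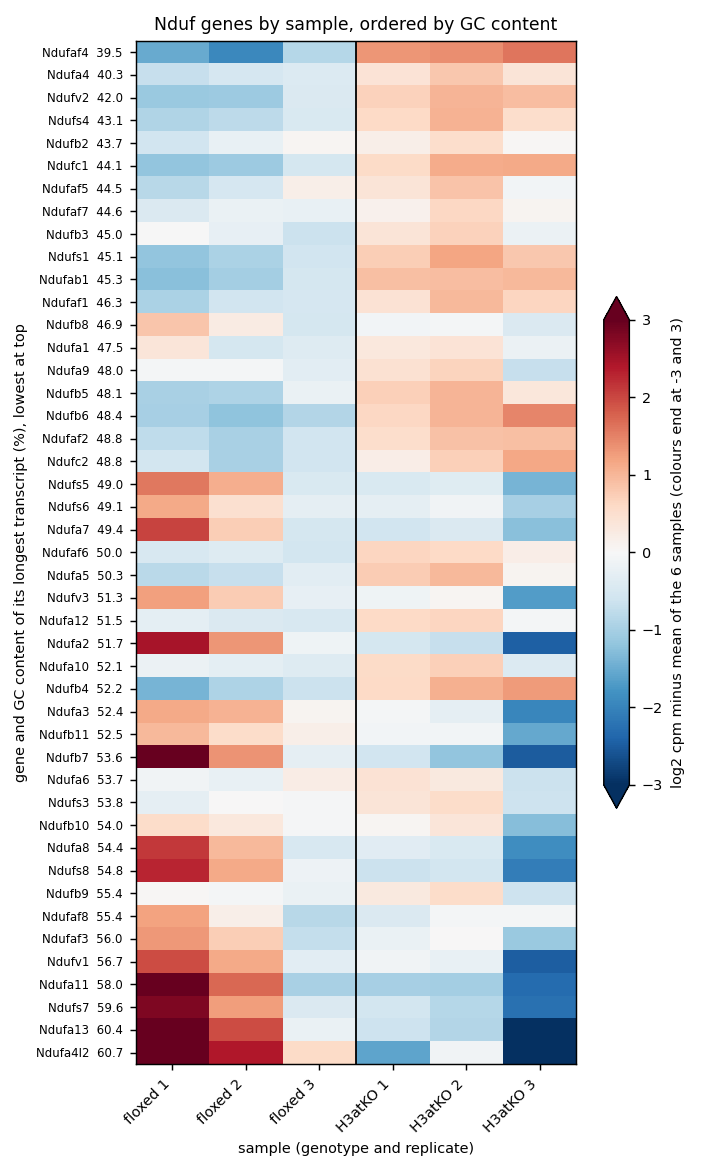
Heat map of 45 of the 46 Nduf genes (rows, ordered by the GC content of the longest transcript in percent) in the 6 samples (columns), coloured by log2 cpm minus the gene's mean over the 6 samples. The top of the map is blue in floxed and red in H3atKO samples, the bottom is red in floxed replicates 1 and 2 and blue in H3atKO replicate 3, and floxed replicate 3 lies between the others.

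The median log2 fold change of the 36 subunits was 0.11 beside -0.09 for all tested genes, and it became -0.74 with library sizes alone and -0.32 with library sizes without mitochondrial genes. Those scalings moved the median of all genes to -0.94 and -0.52, and relative to it the subunits stood at 0.21 under TMM and 0.20 under both of these scalings. That distance was not stable, at -0.11 with no filter on low counts, 0.07 without H3atKO replicate 1, 0.04 without H3atKO replicate 2 and 0.52 without H3atKO replicate 3. Of the subunits 19 had a positive and 17 a negative change. For the 8 assembly factors the median was 0.88, with 6 positive and 2 negative, and relative to all genes it was 0.97 under TMM 0.97 and 0.98 under the other scalings, and 0.64 with no filter on low counts. Summed over the 36 subunits, normalized expression was 2137, 1688 and 1585 cpm in floxed replicates 1 to 3 and, in the same order, 2746, 3279 and 2312 cpm in H3atKO samples, and the groups did not overlap. With library sizes alone these sums were 2765, 2318 and 2156 cpm in floxed and 2526, 2212 and 1532 cpm in H3atKO samples, so that the groups overlapped and the direction of the difference turned. Much of the difference under TMM lay in 2 abundant subunits. Ndufs1 held 111, 131 and 170.3 cpm of the floxed and 418, 572 and 439.5 cpm of the H3atKO sums. Ndufv2 held 81.8, 82.7 and 131 cpm of the floxed and 287, 356 and 336 cpm of the H3atKO sums. The summed cpm of the assembly factors was 77.4, 77.1 and 92.1 in floxed and 225, 272 and 257 in H3atKO samples, and with library sizes alone it was 100.1, 106 and 125 in floxed and 207, 183 and 170.3 in H3atKO samples, without overlap under either scaling. Much of this came from 1 gene, as Ndufaf4 held 15.6, 11.6 and 24.6 cpm of the floxed and 111, 116 and 136 cpm of the H3atKO sums under TMM. With library sizes alone 4 of the 8 factors had a positive and 4 a negative change, with a median of 0.03.

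Values by sample are given from here on in the order of the replicate numbers, whose meaning the labels do not give. Among the core subunits, which are 7 in the nuclear genome, 2 were upregulated (28.6%, against 9.42% of all tested genes). Ndufv2 carries an iron-sulphur cluster next to the NADH site and was at 81.8, 82.7 and 131 cpm in floxed replicates 1 to 3 and, in the same order, 287, 356 and 336 cpm in H3atKO samples. Every H3atKO sample lay above every floxed sample, with a log2 fold change of 1.76 (SE 0.27, limma adjusted p = 0.0155). Ndufs1, the largest subunit and the holder of several of these clusters, was at 111, 131 and 170.3 cpm in floxed and 418, 572 and 439.5 cpm in H3atKO samples. These also did not overlap, and the log2 fold change was 1.80 (SE 0.26, limma adjusted p = 0.0148).

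Ndufv1 binds the flavin that takes the electrons from NADH, and it forms a pair with Ndufv2 in the enzyme. It was at 108, 61.3 and 22.3 cpm in floxed and 25.9, 23.9 and 4.99 cpm in H3atKO samples, so that floxed replicate 3 lay within the range of the H3atKO samples. The log2 fold change was -1.78 (SE 0.80) and did not pass the test (limma adjusted p = 0.126, and 0.00355 with the replicate block). Per count of Ndufv2, the floxed samples held 1.33, 0.741 and 0.171 counts of Ndufv1, and the H3atKO samples held 0.0902, 0.0672 and 0.0149. The floxed group held the widest range of this ratio, and no H3atKO sample reached its lowest value.

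In the Q module, Ndufs3 was at 46.2, 55.4 and 53.6 cpm in floxed and 71.8, 80.5 and 36.2 cpm in H3atKO samples, with H3atKO replicate 3 below all others. Its log2 fold change was 0.22 (SE 0.33) and did not pass the test (limma adjusted p = 0.617). Scaling by library sizes alone turned it to -0.64, and leaving mitochondrial genes out of the library sizes turned it to -0.21. For Ndufs3, 75.7% of the transcript is near-identical (at least 98% over at least 100 bases) to a pseudogene, Gm12251, so its counts are uncertain.

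Ndufs7 and Ndufs8, which carry the last clusters before ubiquinone, had the lowest levels per kilobase of transcript among the core subunits in floxed samples (15.0 and 15.7 cpm per kb). Ndufs7 was at 30.5, 10.4 and 3.23 cpm in floxed and 2.97, 2.396 and 0.885 cpm in H3atKO samples. Ndufs8 was at 29.1, 13.0 and 5.35 cpm in floxed and 3.79, 4.03 and 1.39 cpm in H3atKO samples. In both genes every H3atKO sample lay below every floxed sample, while the floxed samples themselves spanned 9.43-fold in Ndufs7 and 5.44-fold in Ndufs8. The log2 fold changes were -2.39 (SE 1.05, limma adjusted p = 0.121) and -2.15 (SE 0.82, limma adjusted p = 0.0882), and with the replicate block the adjusted p was 0.00425 and 0.00473.

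**Figure D2:**
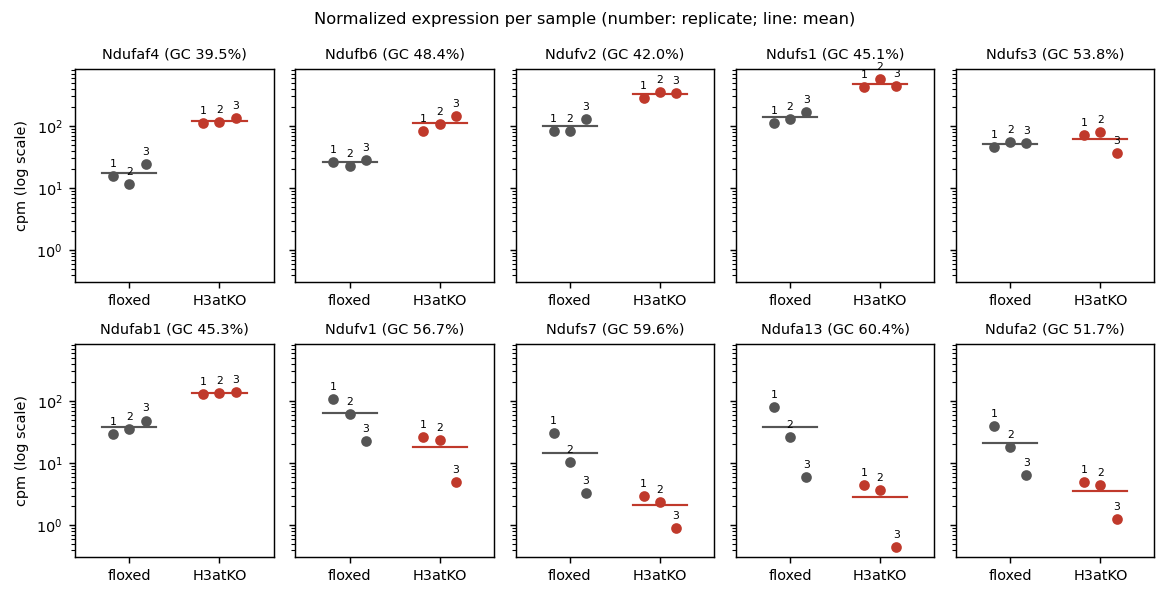
Normalized expression in cpm (log axis) of 10 Nduf genes in the 3 floxed and 3 H3atKO samples; points are samples numbered by replicate and lines are group means. Ndufaf4, Ndufb6, Ndufv2 and Ndufs1 are separated by genotype with close replicates, as is Ndufab1, whereas Ndufv1, Ndufs7, Ndufa13 and Ndufa2 are spread widely within the floxed group as well.

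Accessory subunits numbered 29, of which 8 were upregulated (27.6%) and 0 down-regulated by limma, where 9.42% and 7.07% of all tested genes were. Their median log2 fold change was 0.15 (16 positive, 13 negative) and became -0.70 with library sizes alone. With the replicate block 10 were called higher (34.5%) and 11 lower (37.9%), where 24.8% and 28.7% of all genes were. In the distal membrane arm 4 of 11 subunits rose by limma without the block (36.4%, against 9.42% of all tested genes). Ndufb6 was at 26.6, 22.8 and 28.6 cpm in floxed and 82.0, 107 and 146 cpm in H3atKO samples, a log2 fold change of 2.06 (SE 0.28, limma adjusted p = 0.0124). Ndufb4 was at 7.38, 10.2 and 12.4 cpm in floxed and 29.5, 40.7 and 46.9 cpm in H3atKO samples, a log2 fold change of 1.96 (SE 0.32, limma adjusted p = 0.0200). Both genes were separated by genotype, but 39.0% of the Ndufb6 transcript lies over the neighbouring Smim27 and 40.2% of that of Ndufb4 is near-identical to the pseudogene Ndufb4c.

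Ndufab1, the mitochondrial acyl carrier protein, was at 29.7, 34.7 and 48.4 cpm in floxed and 131, 134 and 138 cpm in H3atKO samples. The H3atKO samples differed from each other by 1.06-fold and lay above all floxed samples (log2 fold change 1.87, SE 0.25, limma adjusted p = 0.0120). Ndufb5, the other distal subunit that rose, had a log2 fold change of 1.38 (limma adjusted p = 0.0327). Ndufb7, a distal subunit with paired cysteines, was at 42.5, 12.2 and 3.94 cpm in floxed and 3.21, 2.09 and 0.822 cpm in H3atKO samples. Its groups did not overlap, yet floxed samples spanned 10.8-fold, and the log2 fold change of -2.77 (SE 1.16) did not pass the test (limma adjusted p = 0.108, and 0.00328 with the replicate block).

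In the proximal membrane arm 2 of 8 subunits rose. Ndufc1 was at 18.05, 19.3 and 28.3 cpm in floxed and 60.8, 87.8 and 89.3 cpm in H3atKO samples, without overlap (log2 fold change 1.86, SE 0.29, limma adjusted p = 0.0164). Its partner Ndufc2 had a log2 fold change of 1.39 (limma adjusted p = 0.0315). Ndufa13, also known as GRIM-19, was at 81.2, 26.5 and 5.86 cpm in floxed and 4.41, 3.67 and 0.443 cpm in H3atKO samples. The last value rests on 7 counts, and floxed samples spanned 13.9-fold. The log2 fold change was -3.46 (SE 1.42, limma adjusted p = 0.105, and 0.00288 with the replicate block), and 30.0% of the Ndufa13 transcript overlaps the neighbouring gene Tssk6.

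Ndufa11, a membrane arm subunit, was at 24.3, 6.68 and 1.02 cpm in floxed and 0.988, 0.969 and 0.379 cpm in H3atKO samples. Floxed replicate 3, with 42 counts, was next to H3atKO replicate 1, with 24 counts. The log2 fold change was -2.87 (SE 1.55, limma adjusted p = 0.184, and 0.00566 with the replicate block). In the N module 3 of 10 subunits rose (30.0%, against 9.42% of all tested genes). They were the core subunits Ndufv2 and Ndufs1 and the accessory subunit Ndufs4, whose loss in mice is a model of Leigh syndrome (log2 fold change 1.44, limma adjusted p = 0.0213). Ndufa2, which lies in the same module on chromosome 18, was at 39.8, 17.9 and 6.46 cpm in floxed and 4.94, 4.38 and 1.26 cpm in H3atKO samples. Its groups did not overlap, and the log2 fold change of -2.41 (SE 0.91) did not pass the test (limma adjusted p = 0.0865, and 0.00323 with the replicate block). In the Q module the accessory subunit Ndufa5 rose (log2 fold change 1.21, limma adjusted p = 0.0397).

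**Figure D3:**
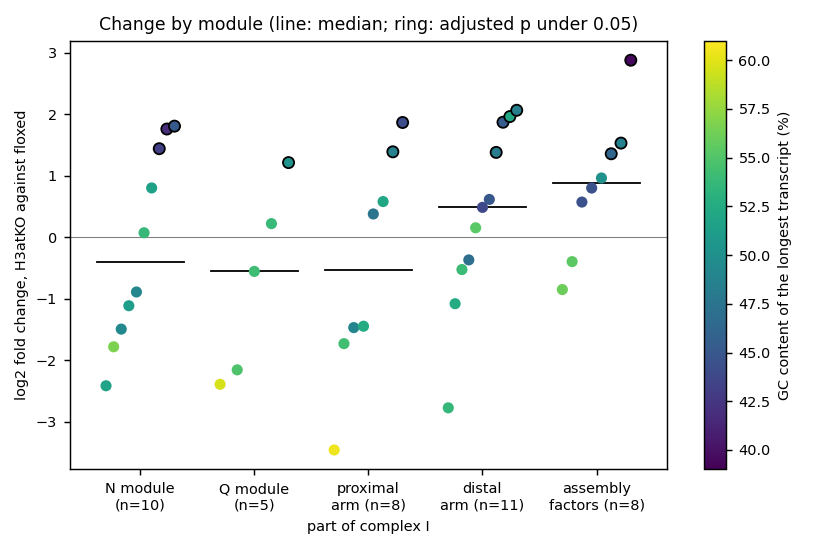
Log2 fold change (H3atKO against floxed) of the subunits of each module and of the assembly factors; points are genes coloured by GC content in percent, rings mark an adjusted p under 0.05 and lines are medians. The medians were -0.41 in the N module, -0.53 in the proximal arm, 0.49 in the distal arm (-0.36 with library sizes alone) and 0.88 in the assembly factors (0.03 with library sizes alone), and in each column the gene of highest change is darker, of lower GC content, than that of lowest change.

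Of the 8 assembly factors 3 rose (37.5%, against 9.42% of all tested genes). Ndufaf4 acts with Ndufaf3 on the Q module and had the largest positive change of all members. It was at 15.6, 11.6 and 24.6 cpm in floxed and 111, 116 and 136 cpm in H3atKO samples, a log2 fold change of 2.88 (SE 0.31, limma adjusted p = 0.00870). Ndufaf3 was at 8.50, 5.75 and 2.09 cpm in floxed and 3.01, 3.47 and 1.58 cpm in H3atKO samples, which overlap (log2 fold change -0.85, SE 0.65, limma adjusted p = 0.333, and 0.0480 with the replicate block). These partners differ by GC content too, with 39.5% in Ndufaf4 and 56.0% in Ndufaf3.

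Ndufaf2, a relative of the accessory subunit Ndufa12 that holds its place during assembly, was at 9.02, 7.77 and 10.3 cpm in floxed and 21.99, 28.3 and 28.6 cpm in H3atKO samples (log2 fold change 1.53, SE 0.28, limma adjusted p = 0.0241). Ndufaf1, which builds the membrane arm as part of an assembly complex, was at 18.8, 24.3 and 25.4 cpm in floxed and 49.0, 70.9 and 56.2 cpm in H3atKO samples (log2 fold change 1.36, SE 0.26, limma adjusted p = 0.0253). Neither gene overlapped between the groups. With library sizes alone the log2 fold changes were 0.69 for Ndufaf2 and 0.51 for Ndufaf1, and neither passed the test (limma adjusted p = 0.110 and 0.184).

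The remaining assembly factors did not pass the test. Ndufaf6, needed for the Q module, was at 2.88, 3.05 and 2.72 cpm in floxed and 6.30, 6.02 and 4.55 cpm in H3atKO samples, without overlap (log2 fold change 0.96, SE 0.36, limma adjusted p = 0.0846, and 0.0251 with the replicate block). Ndufaf7, an arginine methyltransferase, was at 14.7, 17.3 and 17.1 cpm in floxed and 21.8, 30.8 and 21.2 cpm in H3atKO samples (log2 fold change 0.57, limma adjusted p = 0.144). Its groups did not overlap, but with library sizes alone the log2 fold change was -0.27.

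Ndufaf5, which hydroxylates an arginine of Ndufs7, was at 4.54, 5.70 and 9.07 cpm in floxed and 10.6, 14.5 and 7.65 cpm in H3atKO samples (log2 fold change 0.80, limma adjusted p = 0.168, and -0.05 on the log2 scale with library sizes alone). Ndufaf8, the stabilising partner of Ndufaf5, was at 3.27, 1.59 and 0.778 cpm in floxed and 1.03, 1.33 and 1.33 cpm in H3atKO samples (log2 fold change -0.40, limma adjusted p = 0.657). The groups overlapped in both.

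Ndufa4 was at 165, 188 and 199 cpm in floxed and 357, 464 and 349 cpm in H3atKO samples, and had the highest level per kilobase of transcript of all members in floxed samples (302 cpm per kb). It rose by 1.07 on the log2 scale (SE 0.23, limma adjusted p = 0.0307) with no overlap between groups. With library sizes alone the change of Ndufa4 was 0.22 and did not pass the test (limma adjusted p = 0.517). Ndufa4l2, its relative that is known to respond to hypoxia, was at 6.02, 3.61 and 0.996 cpm in floxed and 0.206, 0.612 and 0 cpm in H3atKO samples, the latter from 5, 12 and 0 counts. The 0 is under the floor of 3 counts for that library, 0.126 cpm before scaling. Its log2 fold change of -3.99 (SE 1.43) did not pass the test (limma adjusted p = 0.0780, and 0.00863 with the replicate block). The pair stands near the ends of the range of GC content, with 40.3% in Ndufa4 and 60.7% in Ndufa4l2.

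The changes of the members were ordered by GC content. Spearman's rho between GC content and log2 fold change was -0.730 over the 46 members, -0.700 over the 36 subunits and -0.619 over the 8 assembly factors, and -0.706 over all tested genes. Members share their libraries and are not replicates, so these values are descriptions. The slope over the members was -2.41 log2 units per 10 percentage points of GC content, and with the GC content of the coding sequence alone rho was -0.781.

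Of the 16 members of lowest GC content 9 rose and the median log2 fold change was 1.21 (0.37 with library sizes alone), beside 17.6% called higher and a median of 0.64 (-0.21 with library sizes alone) among all genes in the same range of GC content. Of the next 15 members 5 rose with a median of 0.58 (-0.27 with library sizes alone), beside 3.82% and -0.28. Of the 15 members of highest GC content 0 rose and 0 fell by limma (0 and 6 without overlap between groups, 40.0% lower, where 60.6% of all genes in that range were lower without overlap), and the median was -1.73, beside 0.442% higher, 16.5% lower and a median of -1.59. With the replicate block 9 of these 15 were called lower, where 66.9% of all genes in that range were.

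**Figure D4:**
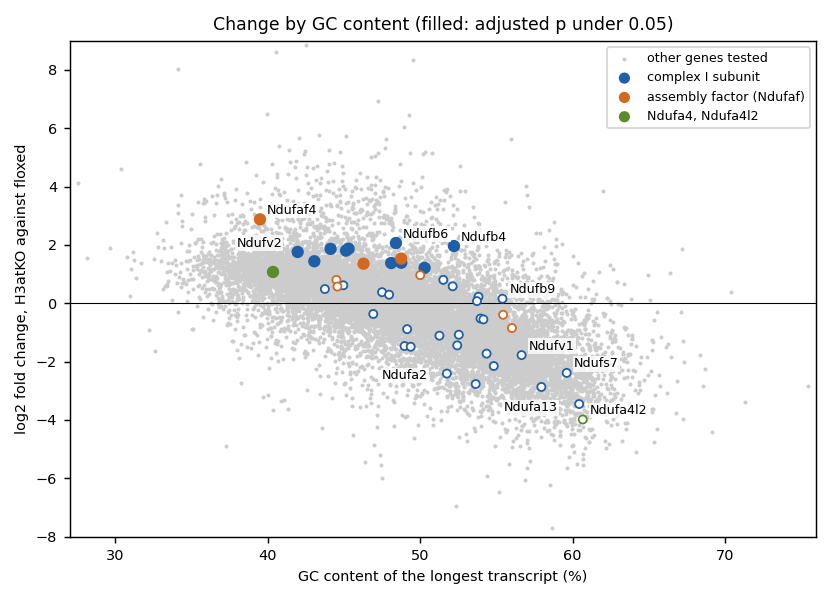
Log2 fold change (H3atKO against floxed, y axis) by the GC content of the longest transcript in percent (x axis) for the 14967 genes tested (grey, those with a GC value) and the 46 Nduf genes (coloured by class, filled at an adjusted p under 0.05). The Nduf genes run down from Ndufaf4 at 39.5% to Ndufa4l2 at 60.7% along the grey cloud, and the filled points end at 52.2%, with Ndufb4.

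The same ordering was present within each genotype. Over the 46 members, the log2 ratio of floxed replicate 2 to replicate 1 had a rho of -0.591 with GC content, that of replicate 3 to replicate 1 had -0.705 and that of replicate 3 to replicate 2 had -0.709. Among H3atKO samples the corresponding values were -0.476, -0.697 and -0.676. Between floxed replicates 3 and 1, Ndufa11 differed by -4.56 on the log2 scale and Ndufaf5 by 0.99, with the other members between them.

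Of the summed cpm of the subunits, the 12 subunits of highest GC content took 40.6%, 34.6% and 28.8% in floxed samples and 19.8%, 17.5% and 10.5% in H3atKO samples, by replicate number. The 11 of lowest GC content took 29.4%, 35.9% and 45.6% in floxed and 55.3%, 58.1% and 63.2% in H3atKO samples. In neither set of subunits did the genotypes overlap. The GC content of the expressed members thus separates the samples as the genotype does, and the effects of genotype and of GC content cannot be told apart.

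After a loess curve on GC content had been subtracted from each sample, 16 members were called higher and 0 lower by limma, with 0 negative changes at an unadjusted p under 0.05, where 5.39% and 3.11% of all genes were called. Because the genotypes are ordered by GC content, this correction also takes away any effect of genotype that follows it. Ndufaf4 was at 1.77 on the log2 scale (limma adjusted p = 0.0161), Ndufb6 at 2.00 (adjusted p = 0.0128) and Ndufb4 at 2.67 (adjusted p = 0.0190). Ndufs1 was at 1.29 (limma adjusted p = 0.0208) and Ndufv2 at 0.84 (adjusted p = 0.0455).

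The corrected values passed the test in 12 of the 14 members named above and were no longer past it in Ndufs4 (0.65, limma adjusted p = 0.131) and Ndufa4 (0.02, adjusted p = 0.969). Newly past it were Ndufb9 (1.54, limma adjusted p = 0.0289), Ndufa12 (1.35, adjusted p = 0.0158), Ndufa10 (1.28, adjusted p = 0.03) and Ndufaf6 (1.15, adjusted p = 0.0403). Ndufv1 stood at -0.11 (limma adjusted p = 0.883) and Ndufs7 at -0.15 (adjusted p = 0.828). Ndufa2 was at -1.80 and Ndufb7 at -1.80, and neither passed (limma adjusted p = 0.166 and 0.229). The correction used the GC content of the longest transcript, which need not be that of the measured mRNA. For Ndufb7 the longest transcript has 4435 bases and a GC content of 53.6%. Its transcript with the longest coding sequence has 623 bases, and that coding sequence has a GC content of 61.1%. With the correction and the replicate block together, 17 members were called higher and 5 lower, against 13.0% and 9.87% of all genes, and the 5 were Ndufa2, Ndufb7, Ndufs5, Ndufa7 and Ndufa13.

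Corrected medians were 0.19 for the subunits and 0.98 for the assembly factors, beside 0.02 for all genes. Over the 46 members, Spearman's rho with GC content was then -0.278 and the slope -0.65 per 10 percentage points. With the GC content of the coding sequence, which the correction did not use, rho was -0.586 over the members and -0.675 over the subunits after it, beside -0.0308 over all tested genes. Of the core subunits Ndufv2 and Ndufs1 were called, and Ndufs3 was at 1.23 (limma adjusted p = 0.0560).

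**Figure D5:**
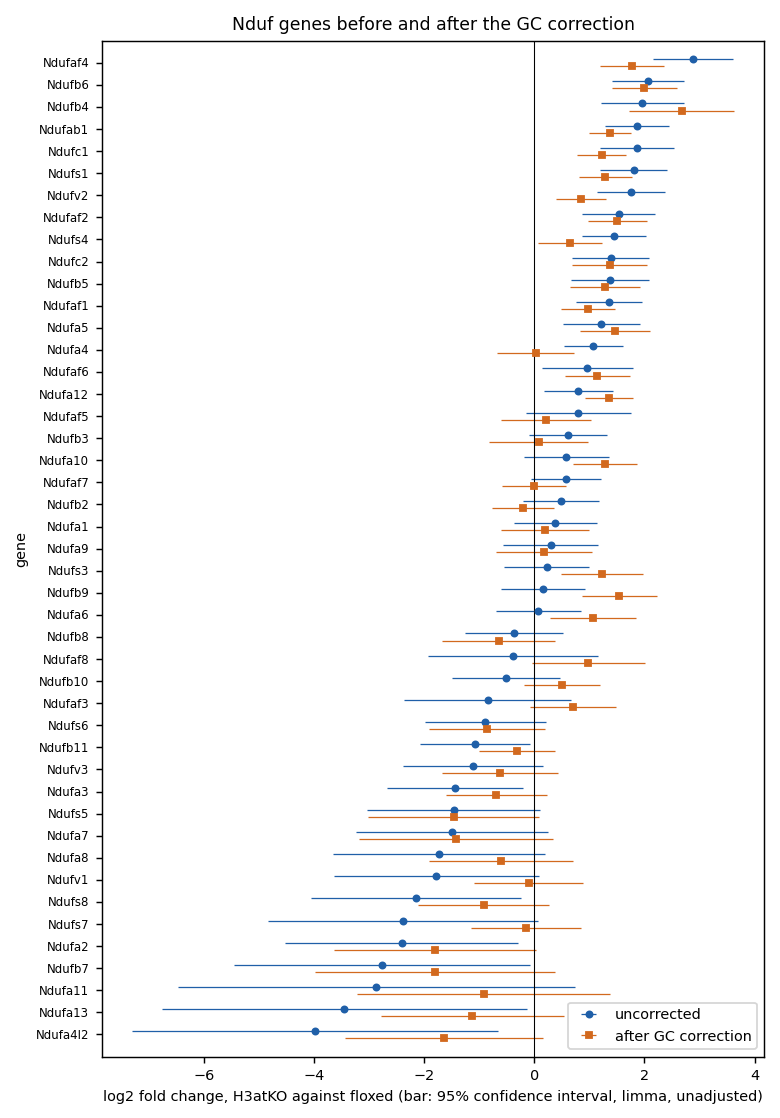
Log2 fold change (H3atKO against floxed, x axis) of 45 of the 46 Nduf genes before (circles) and after (squares) the GC correction, with 95% confidence intervals from limma that are not adjusted for the number of genes. After the correction the lower end of the list moves toward 0, as for Ndufv1 from -1.78 to -0.11, while Ndufb6 remains near 2.00.

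Promoters were read from RefSeq sequences on GRCm38.p6, which matched 40 of the 46 members, as the 250 bases before the start that RefSeq gives. This start can differ from that of GENCODE, and 21 of the 40 windows reach into the gene as GENCODE places it, while the windows printed here lie outside it. For members the RefSeq start nearest to that of GENCODE was used. For all promoters the first one listed for each gene was used, whether the gene was tested or not, so the shares below were not drawn alike. The letters of the palindromic site for NRF1, a known activator of respiratory chain genes, were found in 2 of the 40 (5%) and in 0.781% of 27025 promoters of the same length. The 2 genes were Ndufaf4 and Ndufa11, which stand near opposite ends of the list of changes, and their promoters are shown with the motifs in capitals, the NRF1 letters being the run of 10 bases. That of Ndufaf4 is chr4:24897833-24898082 and also holds a GC box (GGGCGGG), and that of Ndufa11 is chr17:56717512-56717761 and also holds a cyclic AMP response element (TGACGTCA), both on the plus strand.
Ndufaf4: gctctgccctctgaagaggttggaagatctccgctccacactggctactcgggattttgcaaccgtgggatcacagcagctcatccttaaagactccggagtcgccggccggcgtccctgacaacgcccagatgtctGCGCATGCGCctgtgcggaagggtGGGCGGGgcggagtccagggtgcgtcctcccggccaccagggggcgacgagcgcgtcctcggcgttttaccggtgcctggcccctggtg
Ndufa11: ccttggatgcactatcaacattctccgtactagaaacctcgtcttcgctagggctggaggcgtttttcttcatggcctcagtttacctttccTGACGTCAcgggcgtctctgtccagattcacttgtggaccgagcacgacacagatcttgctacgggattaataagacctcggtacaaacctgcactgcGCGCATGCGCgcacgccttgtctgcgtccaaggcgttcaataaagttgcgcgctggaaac
Each motif was searched on both strands. The GC box was found in 14 of 40 (35%) against 23.6% of all promoters, the cyclic AMP response element in 3 (7.5%) against 1.62%, and the core of ETS factor sites (CCGGAAG) in 5 (12.5%) against 7.05%. The YY1 core (AAGATGGC, 1.59% of all promoters) and the extended half-site of oestrogen-related receptors (TCAAGGTCA, 0.366%) were found in 0 of the 40. The same holds for the direct repeat bound by nuclear receptors with a spacer of 1 base (DR1, 0.0370%). Of the 13 upregulated members with a promoter, 1 held the NRF1 letters and 5 the GC box. A match of letters does not show that a factor binds there.

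Other genes of complex I and of the respiratory chain were listed by function. Of the 7 complex I genes of the mitochondrial genome 5 were tested and all 5 rose, with a median log2 fold change of 3.06 and changes between 2.10 (mt-Nd5) and 3.43 (mt-Nd2). After the GC correction 3 of the 5 were called and the median was 1.77. Of 10 further assembly genes 1 rose by limma, a share near the 9.42% of all tested genes. The gene that rose was Tmem70, which acts in the assembly of complexes I and V (log2 fold change 1.88, limma adjusted p = 0.0149). The median log2 fold change of the 10 genes was 0.24 (-0.60 with library sizes alone). Ecsit and Acad9, partners of Ndufaf1, were at -1.20 and 0.51 (limma adjusted p = 0.176 and 0.185). Tmem126b, also among the 10 genes, was at 1.18 (limma adjusted p = 0.0518). With the replicate block 2 of the 10 were called higher, Tmem70 and Tmem126b (limma adjusted p = 0.0029 and 0.00446). Called lower with the block was 1 gene, Ecsit (adjusted p = 0.0173 by limma). Of all genes, 24.8% were called higher and 28.7% lower with the block. After the GC correction the log2 fold change was 0.13 for Tmem126b and 0.20 for Ecsit.

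Of 43 nuclear genes of the other complexes, 12 were called higher (27.9%) and 0 lower by limma, against 9.42% and 7.07% of all tested genes. edgeR called 13 higher (30.2%) and 2 lower (4.65%), against 12.8% and 18.4%. With the replicate block 15 were called higher (34.9%) and 11 lower (25.6%), where 24.8% and 28.7% of all genes were. By complex the genes called higher by limma without the block were 2 of 4 in complex II, 3 of 9 in complex III, 3 of 15 in complex IV and 4 of 15 in complex V. The median log2 fold change of the 43 genes was -0.17, which became 0.54 after the GC correction (28 positive, 15 negative) and was -1.05 with library sizes alone. Spearman's rho with GC content over the 43 was -0.666, and 0.0787 after the correction. The difference between complex I and these complexes was not tested.

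Markers of other cells moved in some of the same samples. Of 7 brown adipocyte markers, 2 rose (5 with the replicate block), and those of all 7 summed to 38.76 to 94.1 cpm in floxed and 327 to 1158 cpm in H3atKO samples. Skeletal muscle, which is rich in complex I, contributed markers that summed to 530 to 2939 cpm in floxed and 2.28 to 3514 cpm in H3atKO samples, with 0 of 8 called. B and T cell markers ran from 4.33 to 100.2 cpm in floxed and from 7.90 to 369 cpm in H3atKO samples, with 0 of 7 called by limma and 3 called higher with the replicate block. Of the markers of macrophages 2 of 5 fell, of endothelium 2 of 4 and of progenitors 2 of 5 (2, 3 and 3 with the block). Of the 6 adipocyte markers 0 were called by limma and 2 were called lower with the block. Beside these counts, 9.42% of all tested genes were called higher and 7.07% lower by limma, and 24.8% and 28.7% with the block. No listed marker was at 0 in any sample, and the part of these cells in the values of the members was not tested.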

How the data were processed

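RNA from IngWAT was sequenced from 3 pools per genotype. The authors prepared poly(A)-selected stranded libraries, trimmed reads with cutadapt 1.3, aligned them to GRCm38 with STAR 2.4.2a and assigned them to Ensembl gene loci with htseq-count (HTSeq 0.6.1), and they deposited raw counts for 46517 genes. The strand setting of the counting is not given in the sources used here. Reads with more than 1 place were given to no gene, which lowers counts of members with near-identical copies. The 5 tally lines of each sample stayed out of library sizes and tests.

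GENCODE M21 gave symbols and positions for 46005 identifiers. Genes reaching 1 cpm in 1 or more samples were tested, scaled with TMM (edgeR 4.0.16) and compared by limma 3.58.1 (voom, moderated test, Benjamini-Hochberg adjustment over the genes tested) in R 4.3.3, after the study's methods, at an adjusted p under 0.05. No p-value was adjusted over the members alone. Values in cpm refer to the scaled library. DESeq2 1.42.0, edgeR's quasi-likelihood test and other scalings, filters, weights, corrections (loess span 0.3) and samples left out were alternatives. PCR copies were not marked, so floors cover counting error only, and the smallest exact permutation p for 3 samples against 3 is 0.1.

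The labels do not say what the replicate numbers stand for. In deviations from the genotype means, same-numbered samples correlated with r of 0.510, 0.389 and 0.264 across the genes tested, and the numbers were therefore taken to pair the samples. What the pools share beyond the number is not given. Without the block, p-values measure the spread between pools of a genotype. With it, they measure the spread left after the replicate number is fitted, under a pairing inferred from these same data.

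Members and lists were chosen with earlier results of these data known. Per-sample values are given for the 8 members with the largest positive and the 8 with the most negative change, the core subunits, the assembly factors, Ndufa4 and Ndufa4l2. Values of 1 member are not reported here, although it is included in counts and summaries.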

Additional observations from a re-analysis of the deposited data

Results flagged for a closer look

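Alignments with more than 1 place, which are tallied apart and enter no gene's count, reached a share of 44.7% ± 0.849 (SD, n = 3) in H3atKO samples, against 31.0% ± 3.68 (SD, n = 3) in floxed samples, of all alignments counted or tallied. They stand out as a signal outside the gene counts that was higher in every H3atKO sample than in every floxed sample. Members whose transcripts are partly near-identical to pseudogenes, such as Ndufs3 (75.7%), Ndufs5 (46.9%) and Ndufb4 (40.2%), can lose reads to this tally, and its part in their values was not tested.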

How the results depend on the processing

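Relative to TMM and limma voom, which called 14 members higher and 0 lower and 1410 and 1058 of all genes, members called lower numbered 7 with edgeR, 12 with DESeq2, 17 with library sizes alone, 5 with library sizes without mitochondrial genes, 15 with sample quality weights, 16 with the replicate block, 5 with the replicate block and GC correction, and 5 at an adjusted p under 0.10. Members called higher numbered 7 with library sizes alone. Of all genes, the higher and lower calls numbered 2935 and 3465 with DESeq2, 306 and 5667 with library sizes alone, 630 and 3513 with library sizes without mitochondrial genes, 4003 and 4440 with sample quality weights, 3717 and 4290 with the replicate block, 807 and 465 with the GC correction, 781 and 475 with the GC and length correction, and 2804 and 3182 at an adjusted p under 0.10. Lower calls numbered 2749 with edgeR and 1864 with at least 10 counts in every sample. The causes were not tested.

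The subunit median of 0.11 became -0.74 with library sizes alone and -0.32 without mitochondrial genes in the library size, and that of the assembly factors, 0.88, became 0.027 and 0.46. Spearman's rho with GC content, -0.730, became -0.666 with at least 10 counts in every sample, -0.278 with the GC correction, -0.295 with the replicate block added to it and -0.291 with the GC and length correction. Over all genes the GC correction took it to -0.00152.

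Under the GC correction, the same with the replicate block, and the GC and length correction, in that order, Ndufaf3 turned to 0.69, 0.62 and 0.70, Ndufaf8 to 0.98, 0.83 and 0.90, and Ndufaf7 to -0.0041, -0.0057 and -0.037. Ndufa4 was at -0.0055 with the GC and length correction. With library sizes alone Ndufs3 was at -0.64, Ndufaf5 at -0.050 and Ndufaf7 at -0.27, and Ndufs3 was at -0.21 with library sizes without mitochondrial genes.

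With each sample left out in turn, members called higher ranged from 0 to 14 and lower from 0 to 15, all genes called higher from 1 to 2729 and lower from 0 to 3828, the subunit median from -0.11 to 0.45, the assembly factor median from 0.69 to 1.05, and rho from -0.736 to -0.718. Ndufs3 ranged from -0.031 to 0.56 and Ndufaf8 from -0.90 to 0.13. Ndufaf4 and Ndufb6 passed the test in 5 of the 6 fits, Ndufab1 and Ndufs1 in 4, and Ndufc1 in 3. Ndufb4 and Ndufv2 passed it in 2, and Ndufaf1, Ndufaf2 and Ndufa4 in 1. The replicate block brought 10 of the 24 named members past the threshold and changed no other call among them. The number of pools, 3 per genotype, and counts under 10 in Ndufa11, Ndufa13 and Ndufa4l2 limit the precision.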
